A study of Mus musculus with 8 samples.

Results

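The expression of 9 complement genes was followed through wound healing, in leukocytes from wounds of diabetic and of control mice: C1qa, C1qb, C1qc, C4b, C3, Cfb, Cfp, C3ar1 and C5ar1. They were chosen by name, as components and receptors of complement, and are 9 of the 21742 genes named in the count tables. All 9 are named in the tables. The tables hold raw counts of unique molecular identifiers (UMIs, 1 for each captured RNA molecule) for each gene and cell barcode in 8 libraries. Each library held CD45+ cells from full-thickness back skin wounds of 5 male C57BL/6J mice, pooled. In the diabetic group the mice had been given streptozotocin (STZ), which destroys the insulin-producing cells of the pancreas, at 120 mg/kg at 4 weeks of age; the control group was not made diabetic. Wounds were taken 1, 3, 5 and 7 days after wounding, which gave 1 library for each group and day, so a day has no replicate and pooling hides the spread between mice. Tests were therefore made over the 4 days of a group, and the 4 libraries of a group are its replicates only in that sense.

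Complement is a set of serum and cell-surface proteins that tag microbes and dying cells. C1q, built from the products of C1qa, C1qb and C1qc, binds immune complexes and dying cells and starts the classical pathway, which cleaves C4 and C2. The alternative pathway amplifies the cleavage of C3 through factor B (Cfb) and is stabilised by properdin (Cfp). The fragments C3a and C5a act on the receptors C3ar1 and C5ar1, which draw in and activate myeloid cells. Most serum complement is made in the liver, but C1q is made largely by macrophages and dendritic cells, and properdin by leukocytes.

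The libraries held 19236522 to 33842509 UMIs and 3266 to 5436 cells that passed the filter (over 200 genes and under 20% mitochondrial UMIs), 35158 cells in all. The control library of day 5 lost 28.6% of its barcodes to this filter and the others 1.00% to 10.8%. Ptprc, the gene for CD45, had a UMI in 70.8% to 86.1% of the cells of a library. Cells were clustered without the 9 genes or any other complement gene, and clusters were named from markers that hold none of them. C1qa is a common macrophage marker, also in this study, and was left out of the markers for that reason. A level is given as CPM, the UMIs of the gene in 1000000 UMIs of the library or class, with exact Poisson 95% intervals that cover counting error only.

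The cell makeup differed between the groups and days, which bears on every whole-library value. Macrophage-like cells were 14.5%, 20.7%, 11.7% and 28.6% of the diabetic cells on days 1, 3, 5 and 7, and 12.3%, 15.7%, 46.8% and 50.7% of the control cells. Neutrophil-like cells were 51.4%, 49.2%, 45.9% and 20.6% of the diabetic cells on the same days and 59.9%, 41.4%, 7.90% and 23.0% of the control cells. In a whole-library sum, fewer cells of a type and less RNA per cell cannot be told apart, so each gene is also given within a class. A cluster of 3340 cells led by Malat1 stayed unnamed, since its median of 1003 UMIs a cell was far under that of its libraries, and its summed C1q level was 1016 to 5841 CPM.

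The genes lie on 5 chromosomes, all on the minus strand (GRCm38, GENCODE vM21). The C1q genes are neighbours on chromosome 4, with C1qb at chr4:136880129-136886187, C1qc at chr4:136889804-136893065 and C1qa at chr4:136895917-136898803, each of 3 exons. The gaps between them are 3616 bases (C1qb to C1qc) and 2851 bases (C1qc to C1qa). C4b (chr17:34728380-34743882) and Cfb (chr17:34856374-34862518) lie 112491 bases apart in the same region of chromosome 17, and C3 (chr17:57203970-57228136) lies elsewhere on it. C3ar1 is at chr6:122847138-122856161, C5ar1 at chr7:16246743-16259540 and Cfp at chrX:20925454-20931555. C4b has a near-identical copy, C4a, which had no row here, so whether reads of both copies were told apart is uncertain. The annotation places Gm20547 on the same strand across Cfb.

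The start-site regions of 3 of the genes are shown because the order of the classes by median level differed, among named classes present in 4 or more libraries. Macrophage-like and then monocyte-like cells were highest for C1qb, and macrophage-like and then dendritic-like cells for Cfp. For C3 they were neutrophil-like and then monocyte-like cells. Each region is the 250 bases before the RefSeq start (GRCm38.p6, minus strand), at chr4:136886201-136886450 for C1qb, chr17:57228137-57228386 for C3 and chrX:20931556-20931805 for Cfp. Capitals mark matches, on either strand, to the letters GAGGAA (as bound by PU.1), TGCTGA (MAF) or TTNNGNAA (C/EBP), or to the NF-kB motif.
C1qb: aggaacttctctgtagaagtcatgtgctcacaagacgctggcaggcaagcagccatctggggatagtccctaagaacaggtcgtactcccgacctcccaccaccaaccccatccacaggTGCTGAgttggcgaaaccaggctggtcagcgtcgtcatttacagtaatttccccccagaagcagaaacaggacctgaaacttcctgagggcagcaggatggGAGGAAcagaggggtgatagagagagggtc
C3: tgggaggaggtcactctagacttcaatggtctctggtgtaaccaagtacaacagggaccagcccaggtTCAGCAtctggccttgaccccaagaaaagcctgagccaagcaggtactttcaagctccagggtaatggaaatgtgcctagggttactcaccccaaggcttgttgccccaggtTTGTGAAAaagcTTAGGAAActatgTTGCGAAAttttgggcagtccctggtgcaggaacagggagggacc
Cfp: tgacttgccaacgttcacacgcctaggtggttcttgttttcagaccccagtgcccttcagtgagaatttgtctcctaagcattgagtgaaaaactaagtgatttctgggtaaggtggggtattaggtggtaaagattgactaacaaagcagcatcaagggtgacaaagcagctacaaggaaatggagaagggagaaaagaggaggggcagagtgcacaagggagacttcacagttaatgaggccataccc
The C1qb region holds TGCTGA 131 bases and GAGGAA 30 bases before the start. The C3 region holds TTNNGNAA at 70, 58 and 45 bases before the start, the last of them on both strands, and TGCTGA on the other strand 182 bases before it. The Cfp region holds none of the 4. Of 27025 mouse promoters of this length, 23.1% hold GAGGAA, 15.8% TGCTGA, 36.9% TTNNGNAA and 0.337% the NF-kB motif, so the 3 short ones are common by their letters alone, and a match describes the sequence and no binding. Of the 9 genes, 6 had an entry in this table.

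Among the named classes present in 4 or more libraries the C1q genes had their highest medians in macrophage-like cells, and in whole libraries they were higher on day 3 than on day 1 in both groups. In whole libraries C1qb was 212, 1371, 625 and 1612 CPM in the diabetic group on days 1, 3, 5 and 7, and 396, 1229, 2610 and 2500 CPM in the control group. C1qa was 59.1, 439, 267 and 505 CPM in the diabetic libraries and 104, 473, 1086 and 792 CPM in the control libraries. C1qc was 121, 743, 399 and 920 CPM in the diabetic libraries and 221, 711, 1824 and 1496 CPM in the control libraries. All 3 genes dipped at day 5 in the diabetic group, at which day the control group had its highest values.

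The diabetic library of day 5 had 0.239 times the C1qb level of its control (95% interval 0.235 to 0.244), and the ratios for C1qa and C1qc were 0.246 and 0.219. On day 3 the groups were close, with ratios of 0.927 for C1qa, 1.12 for C1qb and 1.04 for C1qc. On day 1 the ratios were 0.535 to 0.570 and on day 7 they were 0.615 to 0.645. These single-day ratios rest on 1 library a side and were not tested.

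**Figure D1:**
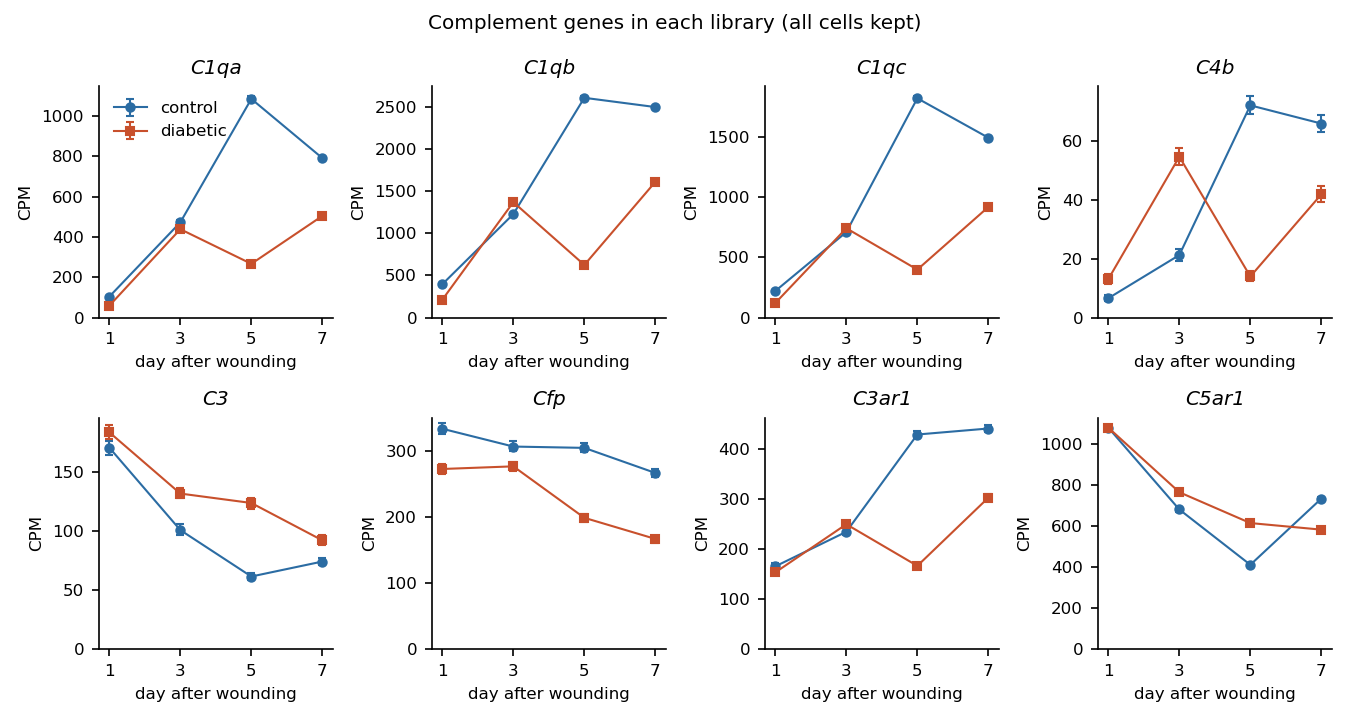
Level of 8 complement genes in each library, in CPM (linear axes from 0), against the day after wounding; blue circles are control and red squares diabetic libraries, and bars are exact Poisson 95% intervals, often smaller than the points. The C1q genes, C3ar1 and C4b are apart at day 5, with C1qb at 625 CPM in the diabetic and 2610 CPM in the control library, while Cfp is lower in the diabetic library on all 4 days.

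Over the 4 days the difference between diabetic and control libraries was a log2 value of -0.86 ± 0.28 for C1qa, -0.82 ± 0.33 for C1qb and -0.89 ± 0.33 for C1qc (SE, 4 libraries a group). Without either library of day 5 these values were -0.52, -0.46 and -0.51, and at the other end, without the diabetic library of day 3, they were -1.14, -1.17 and -1.23. These differences did not pass edgeR's quasi-likelihood test after adjustment over 13857 genes (adjusted p = 0.451 for each). None of the 8 members tested did, and of all genes 0% passed. At an unadjusted p under 0.05, 5 of the 8 members passed (the C1q genes, C3 and Cfp), beside 11.0% of all genes. The members' median was -0.42 and that of all genes 0.00.

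Within macrophage-like cells the C1qb level was 1001, 2743, 1859 and 2822 CPM in the diabetic group over days 1, 3, 5 and 7 and 1317, 2595, 3540 and 3212 CPM in the control group. The C1qa level in these cells was 345, 908, 865 and 936 CPM in the diabetic group and 412, 1091, 1519 and 1058 CPM in the control group. C1qc was 603, 1558, 1259 and 1659 CPM in the diabetic and 818, 1667, 2550 and 1943 CPM in the control group. Over the days the groups overlapped for each of them. Within each day C1qa and C1qc were lower in the diabetic library, with ratios on days 1, 3, 5 and 7 of 0.837, 0.832, 0.569 and 0.884 for C1qa and of 0.737, 0.934, 0.494 and 0.854 for C1qc, each with a counting interval below 1. The ratio of C1qb was 0.760, 1.06, 0.525 and 0.878 on the same days. The gap at day 5 was smaller than in the whole library.

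The fitted differences in macrophage-like cells were -0.35 ± 0.12 for C1qa, -0.33 ± 0.15 for C1qb and -0.42 ± 0.14 for C1qc on the log2 scale, with edgeR adjusted p of 0.235, 0.325 and 0.235. Without the control library of day 5 they were -0.22, -0.15 and -0.24, and without the diabetic library of that day -0.23, -0.16 and -0.25. With the day as a block both fits take day 5 out of the difference, so they are largely the same check. No member passed in these cells, beside 0.114% of all genes. At an unadjusted p under 0.05 there were 5 members (again the C1q genes, C3 and Cfp), beside 15.0% of all genes. The signs of the C1q differences turned with other class borders: at a finer clustering they were 0.04, 0.06 and 0.02 for C1qa, C1qb and C1qc.

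The macrophage-like class is made of 3 clusters whose shares changed with the day. The largest (4004 cells, led by Pf4, Gpnmb and Il10) made up 93.9%, 75.4%, 86.1% and 17.9% of the diabetic class on days 1, 3, 5 and 7 and 92.3%, 73.5%, 49.2% and 3.90% of the control class; 29.0% of its cells scored highest for macrophage markers and 41.0% for monocyte markers. A cluster of 3043 cells led by Igf1, Gdf15 and Lpl held 70.0% of the diabetic and 85.9% of the control class at day 7. The third (1484 cells, led by Retnla, Ccl8, Lyve1 and Cd163, genes known from macrophages resident in tissue) held 44.1% of the control class at day 5.

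C1q differed between these clusters. In the Retnla cluster C1qb was 4663, 4199, 4547 and 3840 CPM in the diabetic group and 4078, 4172, 4398 and 4259 CPM in the control group, level over the days and without a constant order of the groups. In the largest cluster it was 652, 2503, 1668 and 1863 CPM in the diabetic and 1152, 2361, 3018 and 1788 CPM in the control group, lower than in the Retnla cluster in all 8 libraries. Fitted in the Retnla cluster alone, the group differences were 0.01 for C1qa, 0.05 for C1qb and -0.05 for C1qc, and in the largest cluster alone -0.42, -0.37 and -0.48 (edgeR adjusted p 0.252, 0.390 and 0.233). Of all genes, 0.127% passed in the Retnla cluster and 0.102% in the largest cluster. These 2 fits were chosen after the data had been seen.

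**Figure D2:**
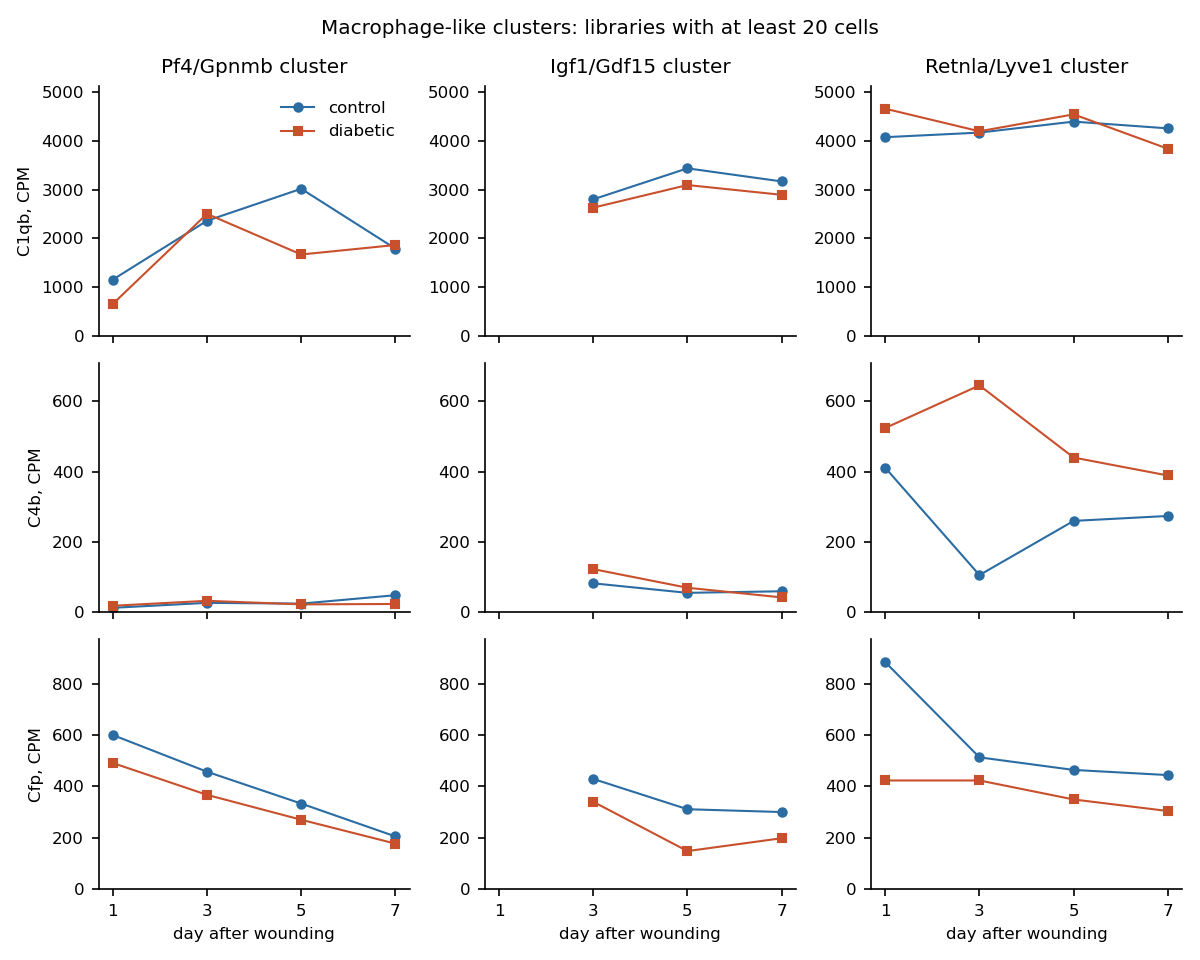
Level of C1qb, C4b and Cfp (rows, CPM, linear axes from 0) in the 3 macrophage-like clusters (columns) against the day after wounding, for libraries with at least 20 cells of the cluster; blue circles are control and red squares diabetic libraries. C1qb lies between 3840 and 4663 CPM in the Retnla cluster, C4b is highest there, and Cfp is lower in the diabetic library at every point shown.

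The 3 subunit genes had similar median proportions in each class. Of the summed C1q UMIs in macrophage-like cells a median of 17.5% came from C1qa (16.2% to 21.7% over 8 libraries), 51.5% from C1qb (46.5% to 52.7%) and 31.2% from C1qc (29.9% to 33.5%). These are shares of UMIs, not corrected for transcript length or capture, and do not give the proportions of the RNAs in the cell. In T or NK cell-like cells, which should not make C1q, the medians were 17.4%, 53.5% and 30.4%, and in neutrophil-like cells 16.1%, 53.5% and 30.7%. The C1qa share varied more there, from 10.0% to 19.6% and from 11.0% to 20.2%, and from 8.20% to 18.0% in dendritic-like cells. Over 48 pairs of library and class the 3 genes correlated at r = 0.985 to 0.990 on the log2 scale.

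C1q UMIs were also found in every other large class. Summed over the 3 genes, T or NK cell-like cells had 498, 1466, 416 and 985 CPM in the diabetic group and 130, 521, 2899 and 1831 CPM in the control group. Neutrophil-like cells had 68.0, 826, 512 and 2659 CPM in the diabetic and 161, 694, 2843 and 3480 CPM in the control group. Macrophage-like cells had 1950, 5209, 3983 and 5416 CPM in the diabetic and 2548, 5353, 7609 and 6214 CPM in the control group. The unnamed cluster was above them in the diabetic library of day 1, at 2497 CPM, and below them in the other 7 libraries. Thinned to 1000 UMIs a cell, a C1qb UMI was found in a median of 72.5% of macrophage-like, 21.6% of neutrophil-like and 24.1% of T or NK cell-like cells, against 87.9%, 40.0% and 57.8% without thinning. The median share in neutrophil-like cells was thus no higher than in a class that should lack the gene, and no expression by neutrophils is read from it. By level, however, C1qb was higher in neutrophil-like than in T or NK cell-like cells in 5 of 8 libraries, among them both of day 7.

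Neutrophil-like C1q rose with the day when both groups were fitted together. The slope per day was 0.66 ± 0.11 for C1qa, 0.55 ± 0.09 for C1qb and 0.60 ± 0.09 for C1qc on the log2 scale, with edgeR adjusted p of 0.001, 9.55e-04 and 6.18e-04. The summed level of 18 macrophage markers in the same neutrophil-like cells moved with it, at 571, 2577, 2109 and 8476 CPM in the diabetic and 714, 2143, 8054 and 10538 CPM in the control group, with 17 or 18 of the 18 found in each library. Macrophage markers in T or NK cell-like cells were 1532, 3469, 1334 and 3553 CPM in the diabetic and 1192, 1389, 8389 and 5432 CPM in the control group. Their part in the slopes was not tested.

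**Figure D3:**
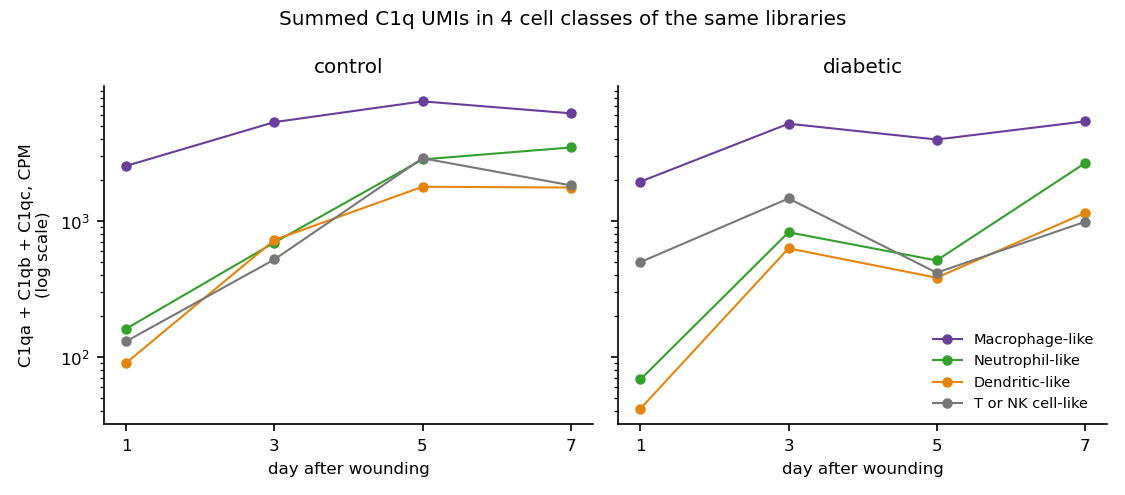
Summed level of C1qa, C1qb and C1qc in CPM (log axis) against the day after wounding, in macrophage-like, neutrophil-like, dendritic-like and T or NK cell-like cells of the control (left) and diabetic (right) libraries, 1 point a library. Of the classes drawn, macrophage-like cells are highest in each library (1950 to 7609 CPM), and the other 3 classes are low on day 1 of the control group and higher on days 5 and 7, including the T or NK cell-like cells at 130 to 2899 CPM.

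In macrophage-like cells the C1q slopes per day were 0.21 for C1qa, 0.19 for C1qb and 0.20 for C1qc, and in whole libraries 0.36, 0.32 and 0.34. None of these passed the edgeR test (adjusted p 0.126, 0.099 and 0.094 in macrophage-like cells and 0.091, 0.082 and 0.069 in whole libraries). At a finer clustering the macrophage-like slopes of C1qa and C1qc turned negative. In the Retnla cluster alone the slope of each C1q gene did so. The day-1 macrophage-like cells were also the shallowest, with medians of 1239 and 2626 UMIs a cell in the 2 groups against 7462 to 10986 on later days.

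The group difference of C1q was negative in each of the 4 classes fitted, although the macrophage-like sign turned with other class borders, as given above. T or NK cell-like cells were not fitted, and their C1qb ratios of diabetic to control were 3.62, 2.91, 0.146 and 0.537 on days 1, 3, 5 and 7. On the log2 scale the group difference was -1.16 for C1qa and -1.02 for C1qc in monocyte-like cells, with a fitted ratio of 0.501 for C1qb. This fit rests on days 1, 3 and 5, as the control library of day 7 had 17 such cells. The ratios on those days were 0.341, 0.946 and 0.247 for C1qa. They were 0.399, 1.20 and 0.239 for C1qb and 0.441, 1.04 and 0.234 for C1qc. The control values of day 5 came from 32 cells. With 1 library left out at a time the monocyte-like difference ranged from -1.73 to -0.75 for C1qa and from -1.64 to -0.47 for C1qb. For C1qc the range was -1.58 to -0.50. The group difference was -0.95, -1.01 and -1.09 for C1qa, C1qb and C1qc in dendritic-like cells and -0.82, -0.78 and -0.89 in neutrophil-like cells. With 1 library left out, the dendritic-like ranges were -1.33 to -0.37, -1.32 to -0.56 and -1.46 to -0.57 for the same genes. The neutrophil-like ranges were -1.16 to -0.42, -1.13 to -0.41 and -1.25 to -0.51. No member passed edgeR's adjusted test in these classes, beside 0%, 0.0100% and 0.0464% of all genes. At an unadjusted p under 0.05 there were 4 members in each, beside 4.89%, 6.39% and 9.52% of all genes. The fourth gene was C4b in monocyte-like cells and C3 in dendritic-like and neutrophil-like cells. Macrophage markers summed to 3934, 6667 and 4854 CPM in diabetic and 4457, 4756 and 11634 CPM in control monocyte-like cells of days 1, 3 and 5. Over days 1, 3, 5 and 7 dendritic-like cells had 1003, 2544, 2152 and 4202 CPM (diabetic) and 1804, 2132, 4805 and 5581 CPM (control). Macrophage-like cells had 7892, 15678, 13790 and 20084 CPM (diabetic) and 10118, 15892, 25478 and 20635 CPM (control). The part of these markers in the C1q differences was not tested. The summed C1q level of dendritic-like cells was 41.4 to 1788 CPM, and their C1qa lay above that of the T or NK cell-like cells in 2 of 8 libraries, so these values cannot be told apart from background. Within the monocyte-like class C1qb was a median of 1558 CPM (269 to 2423) in the cluster led by interferon-induced genes (Ifit2, Rsad2). In the cluster led by Vcan and Chil3 it was 378 CPM (149 to 733). Each median is over 6 libraries, and the ranges overlapped.

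C4b, the complement component cleaved in the classical and lectin pathways, was a low transcript found mainly in macrophage-like cells, which held 75.5% of its UMIs. In whole libraries it was 13.1, 54.8, 14.0 and 42.0 CPM in the diabetic group and 6.59, 21.3, 72.3 and 66.1 CPM in the control group. The diabetic library was the higher on days 1 and 3 (ratios 1.98 and 2.57) and the lower on days 5 and 7 (0.193 and 0.636). In macrophage-like cells C4b was 62.7, 121, 45.5 and 80.5 CPM in the diabetic and 36.0, 39.3, 112 and 79.4 CPM in the control group, with ratios of 1.74, 3.08, 0.406 and 1.01.

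Over all days the C4b difference was -0.12 ± 0.62 in whole libraries and 0.28 ± 0.37 in macrophage-like cells on the log2 scale (edgeR adjusted p 0.942 and 0.756), smaller than its spread between days. Leaving out 1 library at a time moved these over a range from -0.70 to 0.55 and from -0.20 to 0.80. The slopes over days differed between the groups by -0.47 per day (unadjusted p = 0.080) in whole libraries and by -0.28 (0.091) in macrophage-like cells in the edgeR fit, with adjusted p of 1.00 in both. For the difference of slopes 0 genes passed in either fit (0% of all genes), while 240 and 172 genes had an unadjusted p under 0.05 and DESeq2 called 6 and 1.

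Within the class C4b was highest in the Retnla cluster, where it was 524, 645, 440 and 389 CPM in the diabetic group and 411, 106, 260 and 274 CPM in the control group, higher in the diabetic library on each day, unlike in the class as a whole, which was lower in the diabetic library of day 5. The ratios were 1.28 (0.903 to 1.81), 6.09 (4.78 to 7.87), 1.70 (1.36 to 2.09) and 1.42 (1.24 to 1.62). The cells behind them were 31, 227, 34 and 127 in the diabetic and 33, 118, 673 and 241 in the control libraries. The fitted difference was 1.06 ± 0.28 on the log2 scale, with an unadjusted p of 0.001 and an edgeR adjusted p of 0.203. In the largest cluster C4b was 13.0 to 48.8 CPM in all 8 libraries. C4b was among the 10 leading genes of the Retnla cluster although it was not used to build it.

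In the other named classes with 4 or more libraries the median C4b level was at most 14.6 CPM, and in the unnamed cluster it was 43.8 CPM (0 to 102). Fibroblast-like cells were 51 in all, and the 22 of the control library of day 7 had 740 CPM of C4b and 809 CPM of C3. In monocyte-like cells the C4b difference was 1.09 ± 0.39 (edgeR adjusted p = 0.912), on values of 11.7, 24.5 and 14.6 CPM in the diabetic libraries of days 1, 3 and 5 from 91, 74 and 41 UMIs, against 27, 48 and 2 UMIs in the control libraries. With 1 library left out at a time this difference ranged from 0.67 to 1.70. The control library of day 7 had 17 monocyte-like cells and is left out of that fit.

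C3, the central component that all pathways cleave, had its highest median in neutrophil-like cells among the classes present in 4 or more libraries, and fell with the day in whole libraries and in those cells. In whole libraries it was 184, 132, 124 and 92.3 CPM in the diabetic group and 171, 101, 61.6 and 74.3 CPM in the control group. The diabetic library was higher on all 4 days, by 1.08, 1.31, 2.01 (1.89 to 2.13) and 1.24 times. Over all days this was a log2 difference of 0.49 ± 0.20, which edgeR did not call (adjusted p = 0.451, unadjusted 0.050). With 1 library left out at a time it ranged from 0.27 to 0.64. The slope was -0.26 ± 0.05 per day and passed (edgeR adjusted p = 0.025), beside 10.3% of all genes. Of the 8 members, C3 and Cfp passed this test in whole libraries, and both fell. Without the diabetic library of day 1 or day 7, or the control library of day 1, no member passed, and of all genes 11 of 13798, 3 of 13655 and 1 of 13814 did. Without the control library of day 7, 1 member and 235 of 13651 genes passed. Without the diabetic library of day 3, 5 members and 1345 of 13775 genes passed.

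In neutrophil-like cells C3 was 236, 265, 238 and 201 CPM in the diabetic group and 221, 160, 153 and 109 CPM in the control group. The ratios were 1.07 (0.996 to 1.14), 1.65, 1.56 and 1.85. From day 3 on, each diabetic library was above each control library of those days. The fitted difference was 0.71 ± 0.24 on the log2 scale, with an unadjusted p of 0.011 and an edgeR adjusted p of 0.419. The slope over days was -0.26 ± 0.05 per day (edgeR adjusted p = 0.002), and 7 of the 8 members passed in neutrophil-like cells, beside 41.6% of all genes. Of the 7, 5 rose (the C1q genes, C3ar1 and C4b), beside 21.7% of all genes that rose, and C3 and C5ar1 fell, beside 19.9% that fell. In these cells the 15 neutrophil markers summed to 86654, 46629, 38708 and 25809 CPM in the diabetic group and 70613, 46936, 25077 and 20516 CPM in the control group over the 4 days. The part of these markers, and of the macrophage markers given above, in the slopes was not tested. C4b there was 0.802 to 17.3 CPM, near the 0 to 27.7 CPM of T or NK cell-like cells, and its slope of 0.35 ± 0.13 (edgeR adjusted p = 0.041) no longer passed without the diabetic library of day 1 or 7 or the control library of day 1, 5 or 7 (adjusted p 0.060 to 0.191).

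C3 in macrophage-like cells was 88.6, 94.1, 110 and 94.5 CPM in the diabetic and 85.0, 98.6, 68.9 and 63.1 CPM in the control group, apart on days 5 and 7 with ratios of 1.59 and 1.50. The 15 neutrophil markers summed to 2070 CPM in the diabetic macrophage-like cells of day 5 against 450 CPM in the control ones, and to 1734 against 1877 CPM on day 7. Their part in the C3 difference was not tested. The difference was 0.35 ± 0.15 (edgeR adjusted p = 0.314), in dendritic-like cells 0.46 ± 0.19 (0.762), and in monocyte-like cells 0.03 ± 0.24 (0.997), where the ratios were 1.11, 0.676 and 1.31 on days 1, 3 and 5. With 1 library left out, the range was 0.21 to 0.48 in macrophage-like and 0.29 to 0.62 in dendritic-like cells. Monocyte-like cells had 115 to 197 CPM of C3, neutrophil-like cells 109 to 265, dendritic-like cells 23.9 to 48.4 and T or NK cell-like cells 11.0 to 57.3 CPM. Monocyte-like values lay above the macrophage-like values of all 7 libraries compared, and those above the dendritic-like values of all 8. Neutrophil-like and monocyte-like ranges overlapped. At 1000 UMIs a cell a C3 UMI was found in a median of 17.9% of neutrophil-like and 2.53% of T or NK cell-like cells.

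Cfb, the protease part of the alternative pathway's C3 convertase, was near absent: 9 UMIs were counted in all 8 libraries, 5 of them in the control library of day 5. In 3 libraries there was no Cfb UMI; 3 UMIs, taken as the limit that a count of 0 allows, are 0.140 to 0.159 CPM at the depths of these libraries, and the upper ends of the exact intervals are 0.172 to 0.196 CPM. Of the 9 UMIs, 6 were in macrophage-like cells. Cfb entered no test.

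Cfp, which encodes properdin, was lower in the diabetic library on all 4 days in whole libraries and in macrophage-like cells, and fell with the day with both groups fitted together. In whole libraries it was 273, 277, 199 and 167 CPM in the diabetic group and 334, 307, 305 and 267 CPM in the control group, so that the ratios were 0.817, 0.901, 0.653 and 0.625. The log2 difference was -0.40 ± 0.15 (unadjusted p = 0.035, edgeR adjusted p = 0.451). In macrophage-like cells Cfp was 482, 374, 271 and 207 CPM in the diabetic group and 614, 462, 380 and 309 CPM in the control group. The ratios were 0.786, 0.810, 0.711 and 0.670, each with an interval below 1, and the difference was -0.41 ± 0.10 (unadjusted p = 0.002, edgeR adjusted p = 0.142). DESeq2 called this difference (adjusted p = 0.021).

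The same order of the groups was found in each macrophage-like cluster. In the largest cluster Cfp was 491, 367, 270 and 177 CPM in the diabetic and 600, 457, 333 and 205 CPM in the control group. The ratios there were 0.817, 0.803, 0.812 and 0.866, the last with a counting interval of 0.712 to 1.06. In the Igf1 cluster Cfp was 340, 148 and 198 CPM in the diabetic and 429, 311 and 300 CPM in the control libraries of days 3, 5 and 7. The ratio of day 3 there was 0.793 (0.587 to 1.06), and the diabetic value of day 5 came from 19 UMIs in 34 cells. In the Retnla cluster Cfp was 423, 423, 349 and 304 CPM in the diabetic and 884, 513, 464 and 444 CPM in the control group. Fitted in the largest and in the Retnla cluster alone, the differences were -0.27 ± 0.11 and -0.54 ± 0.17 (edgeR adjusted p 0.351 and 0.380).

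Cfp in macrophage-like cells fell by 0.19 ± 0.02 on the log2 scale per day, which passed the edgeR test (adjusted p = 0.005), the only one of the 8 members to do so, beside 2.61% of all genes. The slope in whole libraries was -0.17 ± 0.03 (edgeR adjusted p = 0.024). In the largest cluster alone it was -0.24 ± 0.03 (0.008), beside 0.414% of all genes, and in the Retnla cluster alone -0.12 (0.423), beside 0.123%. Without the diabetic library of day 7 the macrophage-like slope no longer passed (edgeR adjusted p = 0.060). In neutrophil-like cells Cfp was 138, 159, 126 and 149 CPM in the diabetic and 140, 189, 249 and 229 CPM in the control group. The order was not the same in all classes: the ratios were 1.23, 0.835, 1.02 and 0.688 in dendritic-like cells on days 1, 3, 5 and 7, and 0.713, 1.30 and 0.626 in monocyte-like cells on days 1, 3 and 5.

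Cfp was not particular to macrophage-like cells. Its median was 377 CPM there (207 to 614), 340 CPM in dendritic-like cells (218 to 415), 283 CPM in monocyte-like, 154 CPM in neutrophil-like and 84.1 CPM in T or NK cell-like cells (39.4 to 156), and the macrophage-like level was above the dendritic-like one in 5 of 8 libraries. The 2 dendritic-like clusters were apart: the cluster led by Cd209a had a median of 418 CPM (243 to 475) and the cluster led by Fscn1 and Ccr7, genes of migrating dendritic cells, 60.0 CPM (26.8 to 103). Across the genes compared over 48 pairs of library and class, the patterns most like that of Cfp were those of Lmo2 (r = 0.849), Sh3bp2 (0.838) and Ctsz (0.830).

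C3ar1, the receptor for C3a, was highest in macrophage-like cells. In whole libraries it was 153, 249, 166 and 302 CPM in the diabetic group and 165, 234, 428 and 440 CPM in the control group, with ratios of 0.928, 1.06, 0.386 and 0.687. In macrophage-like cells the groups were closer, at 347, 486, 449 and 548 CPM in the diabetic and 336, 553, 586 and 581 CPM in the control group. The log2 difference was -0.44 ± 0.23 in whole libraries and -0.13 ± 0.10 in macrophage-like cells (edgeR adjusted p 0.485 and 0.596). With 1 library left out at a time these ranged from -0.65 to -0.19 and from -0.18 to -0.06. In the Retnla cluster alone the sign turned.

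Neutrophil-like C3ar1 was 23.2, 62.4, 53.9 and 265 CPM in the diabetic and 28.5, 51.9, 235 and 348 CPM in the control group, and rose by 0.43 ± 0.05 per day (edgeR adjusted p = 2.72e-04). T or NK cell-like cells had 91.7, 93.3, 30.3 and 78.3 CPM of C3ar1 in the diabetic and 48.3, 38.2, 198 and 113 CPM in the control group. At 1000 UMIs a cell a C3ar1 UMI was in a median of 35.2% of macrophage-like, 20.6% of monocyte-like, 2.96% of neutrophil-like and 3.89% of T or NK cell-like cells, so the median neutrophil-like share was no higher than the background, although by level C3ar1 was higher in neutrophil-like cells in 5 of 8 libraries, among them those of days 5 and 7 in both groups. The macrophage markers given above were also highest in these neutrophil-like cells on day 7, and their part in this slope was not tested. Monocyte-like cells had a median of 274 CPM, with 442 CPM (285 to 488) in the interferon cluster and 218 CPM (75.7 to 271) in the Vcan cluster.

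C5ar1, the receptor for C5a, was highest in neutrophil-like cells, at 1671, 1439, 1218 and 1226 CPM in the diabetic group and 1527, 1519, 1027 and 1138 CPM in the control group. Each of these lay above each macrophage-like value (515 to 908 CPM). It was followed by macrophage-like cells with a median of 741 CPM and monocyte-like cells with 665 CPM, whose ranges overlapped, and T or NK cell-like cells had 224 CPM (126 to 345). A C5ar1 UMI was in a median of 70.4% of neutrophil-like and 15.4% of T or NK cell-like cells at 1000 UMIs a cell. In neutrophil-like cells C5ar1 fell by 0.24 ± 0.05 per day on the log2 scale (edgeR adjusted p = 0.003). The summed neutrophil markers of these cells also moved with the day, as given for C3, and their part in this fall was not tested.

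In whole libraries C5ar1 was 1077, 763, 613 and 581 CPM in the diabetic and 1077, 679, 410 and 732 CPM in the control group, equal on day 1 (ratio 0.999, 0.980 to 1.02) and with ratios of 1.12, 1.50 and 0.793 later. The difference over all days was 0.14 ± 0.21 in whole libraries, 0.07 ± 0.11 in macrophage-like cells and 0.23 ± 0.25 in neutrophil-like cells (edgeR adjusted p 0.788, 0.824 and 0.794). Leaving out 1 library at a time took it from -0.06 to 0.33 in whole libraries. In macrophage-like cells C5ar1 was 908, 646, 649 and 766 CPM in the diabetic and 879, 716, 515 and 795 CPM in the control group.

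**Figure D4:**
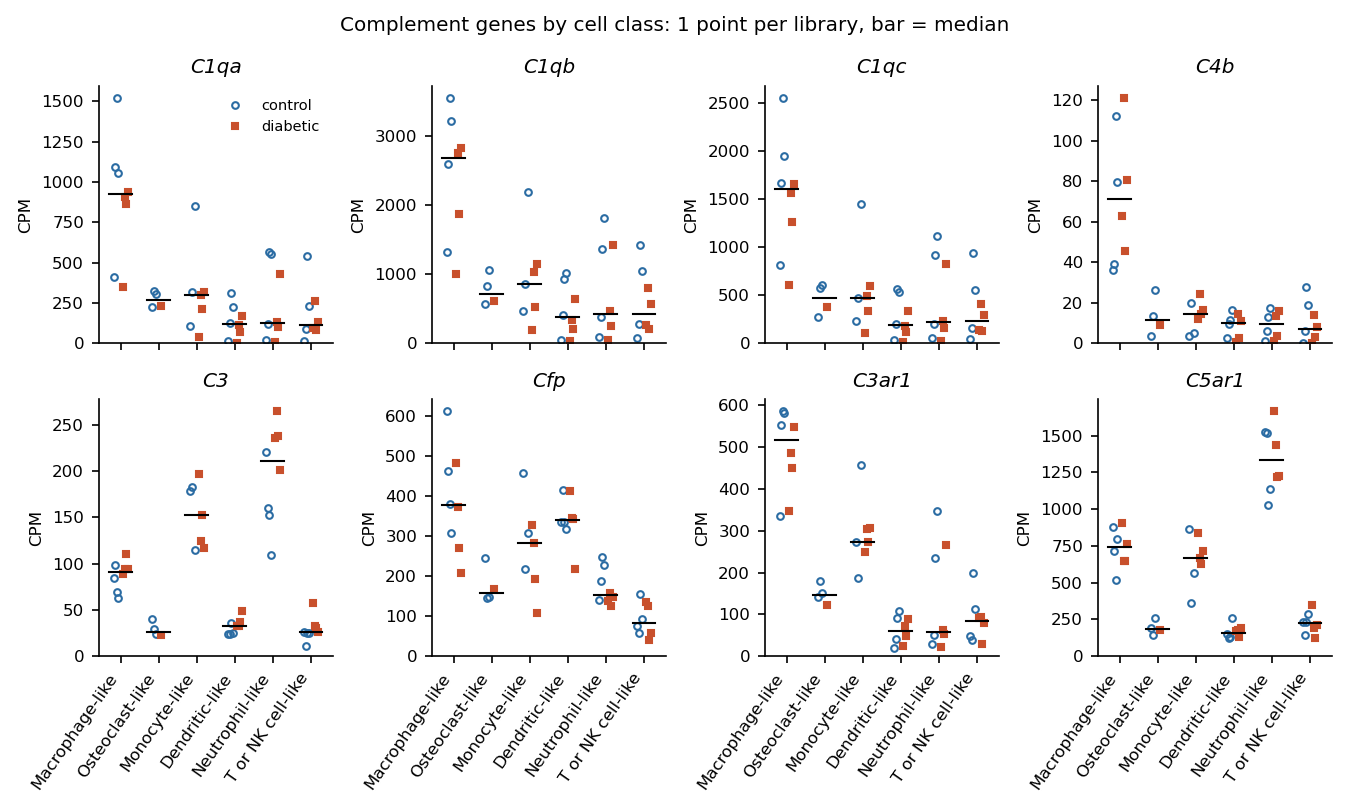
Level of 8 complement genes in CPM (linear axes from 0) in 6 cell classes, 1 point for each library with at least 20 cells of the class (open blue circles control, filled red squares diabetic) and a bar at the median over libraries. The C1q genes, C4b and C3ar1 are highest in macrophage-like cells, and C5ar1 in neutrophil-like cells (1027 to 1671 CPM) lies above all other classes.

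**Figure D5:**
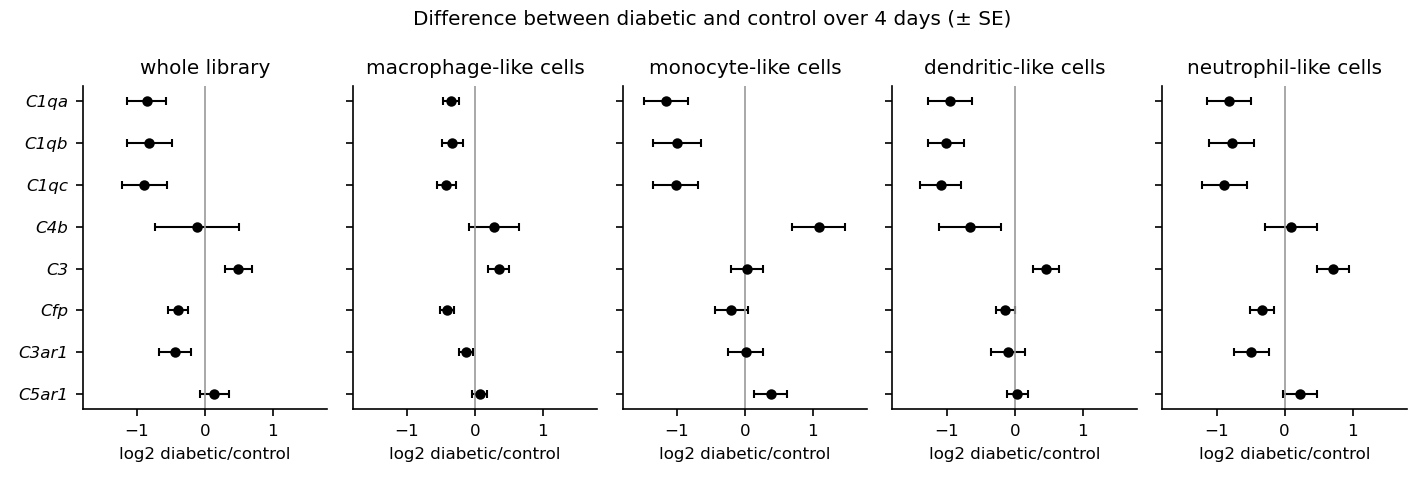
Difference between diabetic and control for 8 complement genes, in whole libraries and in 4 cell classes. Values are log2 diabetic over control with 1 SE (edgeR, day as a block). They cover 4 days, except in monocyte-like cells, where day 7 adds nothing, as its control library had 17 such cells. The C1q genes lie below 0 in each panel (in macrophage-like cells not at a finer clustering) and C3 above 0 in the others but at 0.03 ± 0.24 in monocyte-like cells, with -0.82 and 0.49 for C1qb and C3 in whole libraries, and no difference passed the adjusted test.

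Outside the 9 members, 47 further complement genes were listed by role, and 39 had a row. Of them, 19 had at least 500 UMIs in all libraries together. No member of this list passed the group test in whole libraries or in any of the 4 classes (26, 21, 21, 19 and 14 genes tested in whole libraries, macrophage-like, neutrophil-like, monocyte-like and dendritic-like cells), with a median log2 difference of -0.17 in whole libraries. At an unadjusted p under 0.05 the counts were 3, 0, 3, 1 and 2, beside 11.0%, 15.0%, 9.52%, 4.89% and 6.39% of all genes. Among starters and proteases the most abundant were Fcna (3406 UMIs), a ficolin of the lectin pathway, and C1ra (1698), a protease bound to C1q. Of the convertase parts C2 had 499 UMIs and Cfd, which cleaves factor B, 130. The terminal pathway was led by C6 (982 UMIs) and Hc, the gene for C5 (203). The regulator with most UMIs was Cr1l (17719), and the most abundant other receptors were Calr (168210), a chaperone that also binds C1q, and Itgam (152683), a chain of complement receptor 3.

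Fcna and C6 were, like C4b, low transcripts of macrophage-like cells. Fcna in these cells was 7.78, 28.3, 10.5 and 28.6 CPM in the diabetic and 13.8, 13.7, 84.0 and 30.5 CPM in the control group. C6 there was 4.67, 13.8, 3.65 and 14.3 CPM in the diabetic and 2.43, 2.05, 29.2 and 5.54 CPM in the control group. For both genes the diabetic value was higher on day 3 and lower on day 5, as for C4b in the same class.

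Over the days, 2 of the 24 other complement genes tested in whole libraries passed, beside 10.3% of all genes, and both fell: Itgam by 0.28 and Itgb2, the other chain of that receptor, by 0.15 per day on the log2 scale (edgeR adjusted p 0.028 and 0.047). In macrophage-like cells 3 of 19 passed, beside 2.61% of all genes. Itgam fell by 0.16 per day, Itgax, a chain of complement receptor 4, rose by 0.29, and Serping1, the C1 inhibitor, rose by 0.75 (edgeR adjusted p 0.049, 0.008 and 0.014). Serping1 was 1.56, 1.55, 1.22 and 10.3 CPM there in the diabetic and 0.810, 1.71, 2.14 and 20.3 CPM in the control group, so that it was highest on day 7, and it was 1755 CPM in the pooled fibroblast-like cells. Other classes were also highest on day 7: Serping1 there was 10.1 CPM in diabetic and 15.1 CPM in control neutrophil-like cells, from at most 1.74 CPM on earlier days, and 7.00 and 15.4 CPM in dendritic-like cells, from at most 0.549 CPM. The higher value of day 7 was thus not particular to macrophage-like cells. In neutrophil-like cells 9 of 17 passed, beside 41.6% of all genes. Among them C1qbp, Calr, Colec12, Fcna and Lrp1 rose by 0.36, 0.11, 0.53, 0.56 and 0.17 per day, and Cd55, Itgam and Itgb2 fell by 0.27, 0.25 and 0.16. The summed macrophage markers in these neutrophil-like cells were at most 714 CPM on day 1 and 8476 and 10538 CPM on day 7, and their part in these slopes was not tested.

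The genes whose pattern over 48 pairs of library and class was most like each member were found among 5808 genes, as Pearson's r of log2 levels; the points share libraries and background RNA. Trem2 and Ms4a7 led for each C1q gene, with r of 0.957 and 0.955 for C1qa, 0.947 and 0.942 for C1qb and 0.962 and 0.958 for C1qc. For C4b they were Gas6 (0.859), Gpx3 (0.845) and Rnase4 (0.831), for C3ar1 they included Tnfsf12 (0.909) and Ecm1 (0.878), and for C5ar1 Ets2 (0.934), Cxcl2 (0.934) and Clec4d (0.916). For C3 they were Mgst1, Sntb2 and Fndc3b, all at 0.840. Among the members themselves C3 was most like C5ar1 (r = 0.710). Gas6 and Ms4a7 are also among the macrophage markers used to name the class.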

How the data were processed

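CD45+ single cells of 8 libraries were analysed. The deposited counts are unnormalised UMI counts for each gene in each barcode, made by the authors by trimming (fastp 0.20.1, submitters' notes), UMI assignment with UMI-tools and alignment with STAR. The notes name mm9 and the study's methods Ensembl 92 (GRCm38); the tables give gene names only, so coordinates here are GRCm38. The methods name BD Rhapsody and the series record 10X. A barcode was kept as a cell if it had more than 200 genes and less than 20% mitochondrial UMIs (35158 of 38959 were), and mitochondrial genes were then left out. Barcodes carry serial names, so those shared between libraries could not be counted; 0 profiles were identical between libraries.

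Cells were scaled to 10000 UMIs, and 2000 variable genes (no complement gene) and 10 components were clustered (scanpy 1.11.5, leidenalg 0.10.2, resolution 0.8). Clusters were named "-like" from marker lists, on markers found in at least 10% of a cluster's cells. Scrublet called 68 cells (0.193%), so doublets stay in and were hardly tested. UMIs were summed per library, or per class with at least 20 cells, and tested in edgeR 4.0.16 (R 4.3.3; TMM, filterByExpr, quasi-likelihood, Benjamini-Hochberg over all genes tested, threshold 0.05). The group effect had the day as a block, the day slope had the group as a term, and the difference of slopes was their interaction. Wounds of different mice were pooled and each group had 1 library a day, so a p-value measures the spread left after these terms. The fits were tested on simulated data. Alternatives were DESeq2 1.42.0, no filter on low counts, other scaling, a filter of at least 500 genes, all barcodes, Scrublet calls removed, resolution 1.6, classes from marker scores, no day block, other depths of thinning, and each library left out. With the day as a block, leaving out either library of a day takes that day out of the group difference. The fits without the diabetic and without the control library of a day are therefore largely the same check. Patterns were compared as log2(CPM + 20) among genes of mean CPM at least 20. All 9 members are named, as are other complement genes that passed a test, the 2 with most UMIs in each role and the 3 genes most like each member; Fcna, C6 and Serping1 values were picked after they were seen. Values of 2 genes that this rule names are not reported here. The members and lists were chosen with earlier results of these data known.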

Additional observations from a re-analysis of the deposited data

Results flagged for a closer look

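In 72 groups of 4 libraries (a gene in a class of 1 group over its days) the highest or lowest library was compared with the others by Dixon's 95% limit, which chance passes in about 1 of 20 groups, and 4 passed. The 4 libraries are of different days, so a change over days also passes. C1qa in macrophage-like cells of the diabetic group was 345 CPM on day 1, and the nearest other day was 865 CPM. C3ar1 in macrophage-like cells of the control group was 336 CPM on day 1, and the nearest other day was 553 CPM. C3ar1 in neutrophil-like cells of the diabetic group was 265 CPM on day 7, and the nearest other day was 62.4 CPM. C3 in dendritic-like cells of the control group was 35.7 CPM on day 5, and the nearest other day was 25.4 CPM.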

How the results depend on the processing

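Of 412 fitted values of members under alternatives other than leaving out a library, 369 kept their direction and side of the threshold, 24 came to pass it, 4 ceased to pass and 15 turned. Of 420 with 1 library left out, 385, 12, 13 and 10 did so. Of 128 class levels, 121 moved by less than the spread between libraries. All 96 single-day ratios stayed within their counting intervals. Without a filter on low counts the group test called 2 members in macrophage-like cells (C1qc and Cfp), 1 in neutrophil-like cells, 3 in monocyte-like cells and 3 in dendritic-like cells, and DESeq2 called 1 (Cfp) in macrophage-like cells; the main fit called 0 in each. Over all genes no filter called 602 of 19443, 171 of 18044, 74 of 16560 and 130 of 17269, and DESeq2 192 of 10019. The day slope called 6 members with DESeq2 in whole libraries (main 2), 4 with no filter, 5 with DESeq2 and 0 in the Retnla cluster alone in macrophage-like cells (main 1), and 4 with classes from marker scores in neutrophil-like cells (main 7). Over all genes DESeq2 called 2776 of 14950 in whole libraries (main 1378 of 13332). In macrophage-like cells no filter called 771 of 19443 and DESeq2 735 of 11904 (main 286 of 10972). The Retnla cluster alone gave 9 of 7302. Marker scores gave 695 of 8728 in neutrophil-like cells (main 4209 of 10120). Leaving out each library gave 0 to 3 members and 0 to 75 of all genes for the monocyte-like group effect, 0 to 5 members and 1 to 1621 genes for the whole-library slope, and 0 to 3 members and 12 to 502 genes for the macrophage-like slope. The monocyte-like count was 3 without either library of day 3, beside 74 of 9909 and 75 of 9937 genes. The whole-library slope called 5 without the diabetic library of day 3, beside 1345 of 13775 genes.

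Group differences in macrophage-like cells turned to 0.04 (C1qa), 0.06 (C1qb) and 0.02 (C1qc) at resolution 1.6. With marker scores they turned to 0.08 (C1qb) and 0.01 (C1qc), in the Retnla cluster alone to 0.01 (C1qa), 0.05 (C1qb) and 0.24 (C3ar1), and in the largest cluster alone to -0.07 (C5ar1) and -0.05 (C4b). Slopes there turned to -0.03 for C1qa and C1qc at resolution 1.6, and to -0.03 (C1qa), -0.01 (C1qb) and -0.06 (C1qc) in the Retnla cluster. Leaving out each library moved C5ar1 from -0.06 to 0.33 (whole library) and -0.05 to 0.13 (macrophage-like), and C4b from -0.70 to 0.55 and -0.20 to 0.80. The cause was not tested.

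Shares of cells with a UMI depend on depth. Without thinning the medians were 57.8% for C1qb in T or NK cell-like cells, 73.2% (C3ar1), 13.6% (C4b) and 64.4% (Cfp) in macrophage-like cells, and 33.1% (C3) and 87.2% (C5ar1) in neutrophil-like cells. At 500 UMIs they were 18.0% (C3ar1), 16.1% (Cfp), 10.1% (C3) and 49.2% (C5ar1).

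Without the day as a replicate block the group test also called 0 members, and 0 of all genes, in each of the 5 fits. Diabetic and control libraries of the same day deviated together on days 1 and 7 (r = 0.674 and 0.663) and not on days 3 and 5 (-0.0683 and -0.151). Over all genes the counts called by edgeR and DESeq2 were 0 and 83 for the group effect in whole libraries, 13 and 192 in macrophage-like cells and 5 and 65 in neutrophil-like cells.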
